A study of Mus musculus with 24 samples.

Results

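The comparison of DNMT1 knockout liver with control liver at week 8 was described across all genes that an Illumina mouse expression array measured. It used the 4 arrays labelled knockout at week 8 and the 4 arrays labelled control at week 8, which were 8 of the 24 arrays of a study that also sampled both genotypes at weeks 4 and 20. Total RNA from mouse liver was turned into biotin-labelled cRNA and hybridised, and each probe was read as a fluorescence intensity. The array held 25697 probes. A gene entered if a probe of its own was above background on 4 or more arrays, and its brightest such probe stood for it, which gave 10733 genes. The labels give the genotype as DNMT1 knockout or control and the time as 8 weeks. The promoter or cell type that drives the deletion, the strain, the sex and whether the week is an age are not given there. Nor is whether the arrays of a group came from separate animals, so each p-value covers the spread among arrays alone, which may be technical. For the tests across all genes, that spread was pooled within the groups of all 24 arrays, those of weeks 4 and 20 included. Because whole liver was profiled, fewer cells of a type and less RNA per cell cannot be told apart.

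DNMT1 is the maintenance DNA methyltransferase: after replication it copies methyl groups at CG dinucleotides from the old DNA strand to the new one, and UHRF1 guides it to such half-methylated sites. In differentiated cells CG methylation keeps germline genes, one allele of imprinted genes and many retroviral repeats silent. The mature liver consists mostly of hepatocytes, which rarely divide, make the plasma proteins, bile acids and urea, and metabolise fats, amino acids and foreign compounds. They share the organ with macrophages, stellate cells, endothelium, bile duct cells and lymphocytes.

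Between 12182 and 12268 probes lay above background on each of the 8 arrays. Values were compared on a scale of log2(intensity + 16), tested with limma across all 10733 genes, and adjusted by the Benjamini-Hochberg method with a threshold of 0.05, so "rose" and "fell" below mean past that threshold. Values given per array are the deposited intensities in arbitrary units, in the order of knockout replicates 1 to 4 and control replicates 2 to 5, and a negative one lies below the mean background. Differences are knockout minus control on the log2 scale with their standard error, and stand in parentheses after a gene name. Where a gene lay at background on every array of one genotype, the size is given as a lower bound on the fold. Profiles correlated at 0.973 to 0.986 among the knockout arrays, at 0.984 to 0.987 among the control arrays, and at 0.889 to 0.922 between the genotypes. Hepatocyte markers were present on all 8 arrays: the summed intensity of 7 of them was 104130 to 109620 in knockout livers and 115500 to 126190 in control livers, with 0 higher and 4 lower past the test. Among all genes tested 24.9% were higher and 24.0% lower.

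Knockout replicate 4 stood apart from the other knockout arrays in sex-linked transcripts. Eif2s3y, a Y-linked translation factor subunit, read 554, 544, 600.1 and -10.8 in the 4 knockout livers, against 600.4, 638, 720.3 and 430.2 in the 4 control livers. Ddx3y, a Y-linked RNA helicase, read 2442, 2438, 1661 and 155 in knockout livers and 2092, 1905, 1773 and 1708 in control livers. Xist, the transcript that coats the inactive X chromosome, read 42.7, 33.6, 40.7 and 131 in knockout livers and 8.10, 23.7, 29.6 and 16.4 in control livers. Replicate 4 thus had little or no Y signal and the highest Xist value, while the label of that array differs from those of the other knockout arrays only in its number. Xist passed the test with all 4 knockout arrays (1.03 ± 0.31) and not without replicate 4 (0.67). Of 5 measured sex-linked transcripts, which also include the Y-linked Kdm5d and Uty, 1 rose and 1 fell. Without replicate 4, 0 rose and 1 fell. Without it, 2592 genes rose and 2463 fell, against 2670 and 2577 with all 4 knockout arrays. The numbers of risen and of fallen members in each gene group below moved by at most 2 when this array was left out, and are given without it for several groups.

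Dnmt1 itself read 87.3, 70.4, 75.3 and 76.1 in knockout livers, against 104, 88.3, 101 and 102 in control livers. All 4 knockout values lay below all 4 control values, but the gap was small, with mean log2 levels of 6.54 ± 0.11 in knockout livers and 6.84 ± 0.09 in control livers (SD, n = 4 each). The log2 difference was -0.30 ± 0.19, which missed the limma threshold (adjusted p = 0.200), and an exact two-sided permutation test over the arrays gave p = 0.0286, the smallest that 4 against 4 allows. The sources used here do not say which part of the transcript the Dnmt1 probe covers or which part of the gene is deleted, and a probe outside the deleted part checks nothing. The knockout-minus-control difference of Dnmt1 was -0.25 ± 0.19 at week 4 and -0.58 ± 0.19 at week 20.

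Uhrf1, the partner that brings DNMT1 to newly replicated DNA, read 352, 290.1, 353 and 290.2 in knockout livers and 27.3, -1.29, 18.4 and 17.5 in control livers. Its knockout values were all far above the controls, with a log2 difference of 3.49 ± 0.38, adjusted p = 4.0e-08. Mbd4, a methyl-CG binding glycosylase that repairs mismatches at methylated sites, was at least 2.15-fold higher, adjusted p = 6.3e-05. Dnmt3b, a methyltransferase that sets methylation anew, showed 0.04 ± 0.36 and did not pass. Of the 13 measured genes for writing, reading or removing DNA methylation, 3 rose and 2 fell, with a median of 0.04. Neither count exceeded the shares over all genes, 24.9% higher and 24.0% lower. The other calls were unstable. That of Uhrf2 (0.26 ± 0.10), a relative of UHRF1, was opposed by another probe (-0.57), turned to -0.05 when its probes were averaged and was lost without knockout replicate 2 (0.23) or 4 (0.24) and without control replicate 2 (0.24) or 3 (0.20). The falls of Mbd3 (-0.39 ± 0.12) and Zbtb33 (-0.45 ± 0.15), which encode readers of methylated DNA, were lost when only the week 8 arrays were fitted (Mbd3) and without knockout replicate 1 or control replicate 4 (Zbtb33, -0.37 each).

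The change at week 8 reached 48.9% of all genes tested, 2670 higher and 2577 lower in knockout livers. Changes of at least 2-fold were less even, with 1366 genes higher (12.7%) and 733 lower (6.83%). The 4 knockout arrays lay wholly above the 4 control arrays for 2418 genes (22.5%) and wholly below for 2294 (21.4%), together 43.9% of genes. A further measure is which genes switched between background and signal. In total 374 genes (3.48%) were above background on all 4 knockout arrays and at background on all 4 control arrays, and 107 genes (0.997%) showed the reverse. The median difference over all genes was -0.07 on the log2 scale, so gene group medians below can be read against a value close to 0. Column medians of the deposited values were 13.3 to 13.6, as after scaling of the arrays to a common distribution. After such scaling, a shift shared by most genes would not show in this median.

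**Figure D1:**
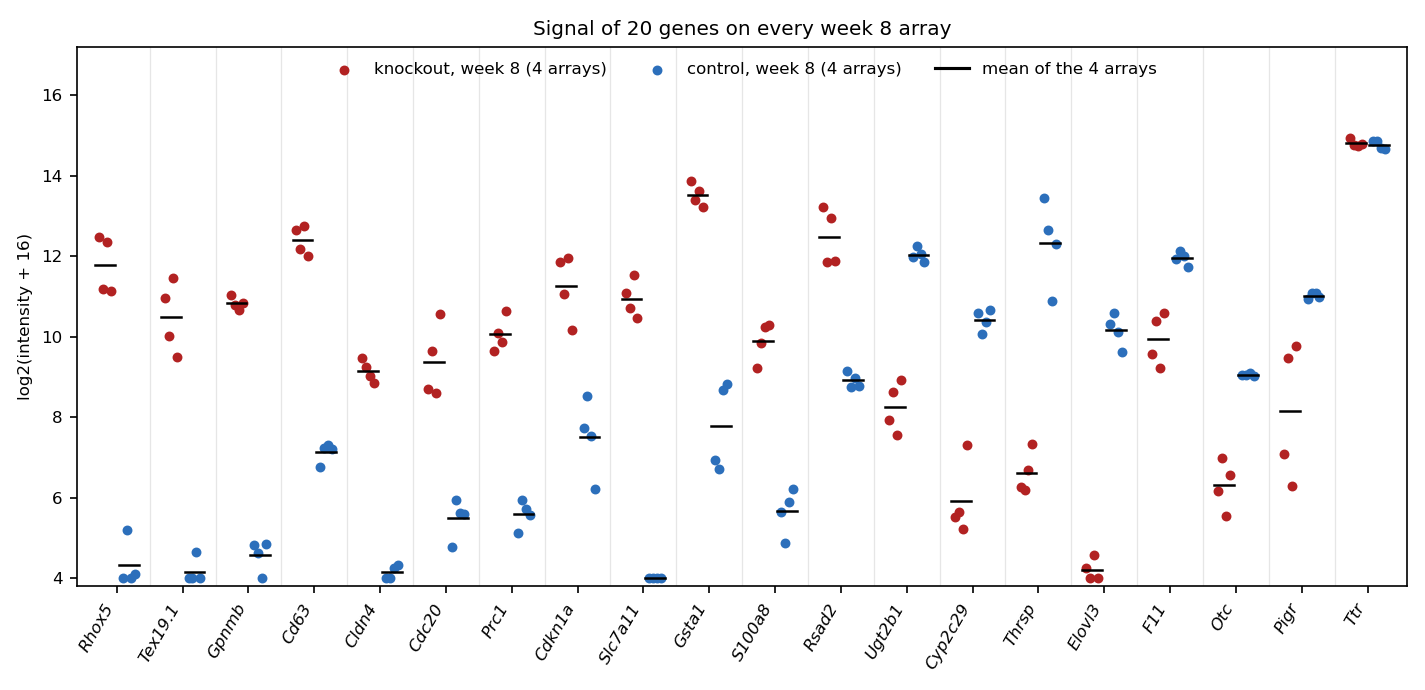
The y axis gives log2(intensity + 16) of 20 genes on each week 8 array, with knockout arrays in red left of control arrays in blue and a bar at the mean of 4. The colours do not overlap for any gene except Ttr, which did not pass the test, and the knockout arrays are spread widely for Pigr.

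Genes of the germline, which most somatic cells keep methylated and silent, were among the largest rises. Rhox5, an X-linked homeobox gene of testis and ovary, read 5688, 2324, 5269 and 2254 in knockout livers, against -0.210, 20.8, -3.76 and 1.39 in control livers (a log2 difference of 7.47 ± 0.28, adjusted p = 4.7e-16). Tex19.1, which restrains retrotransposons in germ cells, read 1981, 1016, 2817 and 706 in knockout livers and -2.90, -2.79, 9.38 and -1.87 in control livers (at least 86.5-fold higher, adjusted p = 2.8e-14). Its neighbouring relative Tex19.2 read 1553, 588, 1026 and 294 in knockout livers and -6.39, -11.4, -4.78 and -11.9 in control livers (at least 44.3-fold higher, adjusted p = 4.1e-12). For all 3 genes every knockout array lay above every control array, and replicate 4 had the lowest knockout value.

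The rest of the germline group followed with smaller values. Of 41 germline genes on the array 23 were measured, of which 13 rose and 1 fell, with a median log2 difference of 1.56. For 7 of the 23 no control array of any week was above background, so they entered through their knockout signal, which raises this share and median. With no filter on low signal, 19 of the 41 rose and 1 fell, against 14.9% and 13.6% of all genes on the array, and the median of the 41 was 0.41. Other groups that are silent in control livers are open to the same effect of the filter. Magea2 and Magea5, cancer-testis antigens of the X chromosome with closely related sequences, were at least 49.5-fold higher and at least 27.1-fold higher. A second probe for Magea5 showed -0.30 and did not pass. Asz1 (4.25 ± 0.37) and Piwil2 (1.37 ± 0.30) belong to the piRNA pathway that silences transposons in germ cells, Taf7l (1.56 ± 0.26) is a germ cell paralogue of a general transcription factor subunit, and Dppa5a (at least 3.33-fold higher) marks pluripotent cells. Tuba3a (at least 4.27-fold higher) and Tuba3b (at least 4.04-fold higher) are testis tubulins of nearly the same sequence. Ddx4, the germ cell RNA helicase often called Vasa, was the member that fell (-0.84 ± 0.23), a call lost with a floor of 16 in place of the offset (-0.34). Members that did not pass included Spo11 (-0.29 ± 0.39), the nuclease that starts meiotic recombination, Brdt (-0.37 ± 0.25), Tdrd1 (-0.39 ± 0.31) and Zfp42 (-0.41 ± 0.39), so the rise covered part of the germline programme.

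Promoter sequences show how differently the genes at the extremes are built. The lines below give 250 bases before to 50 bases after the transcription start from RefSeq (GRCm38.p6), 5′ to 3′ on the gene's strand, with each CG, the site DNMT1 acts on, in capitals. Rhox5 and Tex19.1 represent germline genes that rose, Gpc3 a fetal liver gene that rose, and Hsd3b5 the gene with the deepest fall. They lie at chrX:37754358-37754657, plus strand, at chr11:121145893-121146192, plus strand, at chrX:52613925-52614224, minus strand, and at chr3:98645485-98645784, minus strand.
Rhox5: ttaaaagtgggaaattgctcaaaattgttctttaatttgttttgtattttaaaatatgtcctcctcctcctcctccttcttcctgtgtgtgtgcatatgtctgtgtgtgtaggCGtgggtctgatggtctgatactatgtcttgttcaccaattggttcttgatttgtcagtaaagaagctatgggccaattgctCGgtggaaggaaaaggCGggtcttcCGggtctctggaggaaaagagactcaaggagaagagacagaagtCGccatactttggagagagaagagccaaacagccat
Tex19.1: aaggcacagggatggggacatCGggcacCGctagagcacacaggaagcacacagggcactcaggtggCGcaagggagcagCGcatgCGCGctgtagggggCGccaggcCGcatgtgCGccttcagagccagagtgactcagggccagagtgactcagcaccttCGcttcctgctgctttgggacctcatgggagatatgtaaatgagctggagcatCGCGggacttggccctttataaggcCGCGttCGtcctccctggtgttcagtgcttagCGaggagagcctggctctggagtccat
Gpc3: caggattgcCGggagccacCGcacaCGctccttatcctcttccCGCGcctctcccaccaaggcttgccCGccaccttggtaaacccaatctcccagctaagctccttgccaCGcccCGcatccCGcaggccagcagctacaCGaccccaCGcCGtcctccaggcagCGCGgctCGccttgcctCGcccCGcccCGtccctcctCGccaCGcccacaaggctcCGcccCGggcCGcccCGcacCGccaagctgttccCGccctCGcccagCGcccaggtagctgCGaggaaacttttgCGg
Hsd3b5: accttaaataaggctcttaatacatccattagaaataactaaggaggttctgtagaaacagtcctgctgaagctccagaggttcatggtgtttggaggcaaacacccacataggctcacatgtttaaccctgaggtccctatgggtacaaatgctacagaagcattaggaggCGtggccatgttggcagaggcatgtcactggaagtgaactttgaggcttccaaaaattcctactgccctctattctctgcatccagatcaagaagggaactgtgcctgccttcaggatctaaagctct
The Rhox5 window holds 5 CG sites, that of Tex19.1 holds 16, that of Gpc3 holds 30, and that of Hsd3b5 holds 1.

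Fetal liver genes, which hepatocytes switch off around and after birth, rose in most measured cases: 11 of 17 rose and 1 fell, with a median of 2.24. With no filter on low signal, 12 of the 25 on the array rose and 1 fell, and their median was 0.38. H19, a non-coding RNA of an imprinted locus, read 7282, 10919.8, 8081 and 17682 in knockout livers, against -1.13, -2.66, 1.77 and 0.831 in control livers, and was at least 632-fold higher, adjusted p = 2.7e-15. Igf2, the fetal growth factor encoded beside it, read 4345, 5716, 2232 and 24711 in knockout livers and 38.1, 4.61, 25.8 and 11.2 in control livers (a log2 difference of 7.51 ± 0.46, adjusted p = 2.5e-12). The knockout arrays lay above the controls for both genes, but their spread was wide, with replicate 4 highest for each. Without replicate 4 the difference of Igf2 was 6.83 ± 0.36.

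Afp, the fetal counterpart of albumin, read 287, 172, 142 and 99.6 in knockout livers and -8.19, -5.60, 0.172 and -0.801 in control livers. It was at least 9.95-fold higher, adjusted p = 1.9e-09, so the signal was present on each knockout array and at background on each control array. Gpc3, a cell surface proteoglycan that is common in liver cancer, read 1177, 959, 1355 and 723 in knockout livers and 16.2, 7.36, 14.9 and 12.1 in control livers (at least 62.7-fold higher, adjusted p = 9.3e-11). Igf2bp3, a fetal RNA-binding protein, read 524, 345, 345 and 342 in knockout livers and 8.18, 2.14, 6.38 and 1.93 in control livers (at least 23.4-fold higher, adjusted p = 1.8e-15). Spink1 (6.03 ± 0.57), a trypsin inhibitor, Alpl (1.59 ± 0.22), the tissue-nonspecific alkaline phosphatase, and Bex2 (2.24 ± 0.32) and Bex4 (2.66 ± 0.30), small adaptor proteins of the X chromosome, rose as well. Bex1, a close relative, was the member that fell (-0.65 ± 0.23), a call lost without knockout replicate 2 (-0.61), knockout replicate 3 (-0.46) or control replicate 5 (-0.56).

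Imprinted genes did not move as 1 block. Of 16 measured, 9 rose and 2 fell. Besides H19 and Igf2, the rises were Igf2r (0.76 ± 0.15), the receptor that clears IGF2, Dlk1 (at least 2.82-fold higher), a Notch-like membrane protein of hepatoblasts, Cdkn1c (1.75 ± 0.27), a cyclin-dependent kinase inhibitor, Phlda2 (at least 12.03-fold higher), a brake on placental growth, Grb10 (1.10 ± 0.23), an adaptor that dampens insulin signalling, Impact (2.07 ± 0.22) and Dcn (1.36 ± 0.10), the matrix proteoglycan decorin. Gnas, the stimulatory G protein alpha subunit, and Slc38a4, an amino acid transporter of hepatocytes, fell (-0.46 ± 0.15 and -1.89 ± 0.26). The fall of Gnas was lost without knockout replicate 3 (-0.33) or control replicate 3 (-0.38). Without knockout replicate 4 the counts were 9 higher and 4 lower.

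Other genes among the 30 largest rises came from varied tissues and pathways. Gpnmb, a glycoprotein of lipid-laden macrophages, read 2092, 1746, 1619 and 1809 in knockout livers and 12.3, 8.77, -5.03 and 12.7 in control livers (at least 111-fold higher, adjusted p = 2.4e-14). Pkd1l2, a polycystin family member, read 2104, 760.3, 2004 and 688 in knockout livers and -13.6, -3.14, -0.264 and 12.8 in control livers (at least 74.6-fold higher, adjusted p = 1.6e-13). Ntrk2, the receptor for brain-derived neurotrophic factor, read 1055, 827, 1593 and 928 in knockout livers and 11.2, 2.49, 35.8 and 23.3 in control livers (a log2 difference of 5.09 ± 0.30, adjusted p = 1.2e-12). Gpnmb and Pkd1l2 were at background on every control array, and Ntrk2 on 2 of the 4. The size depended on the probe. Other probes rose by less for Gpnmb (2.14, against 6.26), Pkd1l2 (4.64, against 6.06) and Ntrk2 (0.80, against 5.09). Bglap3 and Bglap1, copies of the osteocalcin gene of bone with nearly the same sequence, were at least 208-fold higher and at least 39.9-fold higher. Of the other Bglap1 probes, that at 2.93 passed and that at 0.62 did not. Slpi, an inhibitor of neutrophil elastase, read 11179, 7146, 4609 and 5249 in knockout livers and 58.8, 183, 99.3 and 1.79 in control livers (a log2 difference of 6.48 ± 0.73, adjusted p = 8.1e-08). Further ones were Got1l1 (at least 35.7-fold higher), a relative of aspartate aminotransferase, Diaph3 (at least 42.01-fold higher), a formin that nucleates actin, Sdcbp2 (at least 38.4-fold higher), syntenin-2, Cd63 (5.27 ± 0.23), a tetraspanin of lysosomes and exosomes, and Pira4 (5.20 ± 0.24), a paired immunoglobulin-like receptor whose family members share sequence.

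Small secreted and surface proteins of the Ly6, S100 and WAP families mostly rose. Of 23 measured members, 14 rose and 4 fell, with a median of 3.01. Ly6d, a surface protein of lymphoid and epithelial progenitors, read 7133, 6238, 9598 and 5429 in knockout livers and 9.94, 4.58, 3.48 and 9.67 in control livers (at least 425-fold higher, adjusted p = 1.8e-15). Wfdc3, a WAP-domain protein, read 825, 896, 725 and 586 in knockout livers and 9.69, -4.58, -2.21 and -5.38 in control livers (at least 45.8-fold higher, adjusted p = 8.0e-13). Neither gene had a control array above its knockout arrays. Wfdc21 went the other way, with 29.5, 121, 44.99 and 73.97 in knockout livers and 550.3, 689, 795 and 520 in control livers (a log2 difference of -3.08 ± 0.26, adjusted p = 9.3e-10).

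Genes of DNA replication and mitosis, which quiescent adult hepatocytes keep low, rose together. Of 33 measured genes for the G1 to S transition and DNA synthesis, 25 rose and 1 fell (median 1.04). Of 26 measured genes for G2 and mitosis, 23 rose and 0 fell (median 2.55). Without knockout replicate 4, 23 of the mitosis genes and 23 of the replication genes rose, with a mitosis median of 2.31. Ccnd1, cyclin D1, which starts the cycle in regenerating hepatocytes, read 14712, 10604, 10640.2 and 8260 in knockout livers and 675, 759.6, 764 and 662 in control livers (a log2 difference of 3.89 ± 0.23, adjusted p = 1.2e-12). Top2a, the topoisomerase that untangles replicated chromosomes, read 113, 169, 146 and 225 in knockout livers and -8.19, -4.81, 2.07 and -1.29 in control livers (at least 9.69-fold higher, adjusted p = 1.0e-09). Cdk1, the kinase that drives entry into mitosis, read 218, 308, 392 and 581 in knockout livers and 10.2, 30.3, 13.8 and 18.7 in control livers (a log2 difference of 3.46 ± 0.32, adjusted p = 2.8e-09). All 3 were separated on every array, and Top2a and Cdk1 were at or near background in the controls.

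Within the replication group the helicase subunits Mcm2 (1.98 ± 0.23), Mcm4 (1.52 ± 0.19) and Mcm6 (2.50 ± 0.29), the ribonucleotide reductase subunit Rrm2 (1.35 ± 0.26) and the transcription factor E2f1 (0.96 ± 0.20) rose. Mcm10, which helps to start replication forks, was the exception and read 633, 1438, 836 and 1000.5 in knockout livers, against 6956, 5821, 5732 and 6058 in control livers. All 4 of its knockout values were far below the controls (a log2 difference of -2.69 ± 0.27, adjusted p = 9.0e-09), and another probe for Mcm10 fell by 2.88. Pcna, the sliding clamp, showed 0.14 ± 0.28 and Tk1, thymidine kinase, -0.16 ± 0.30, and neither passed. In the mitosis group, Ccnb1 (at least 13.3-fold higher), Plk1 (2.91 ± 0.35), Aurka (3.08 ± 0.33), Birc5 (3.32 ± 0.30), Prc1 (4.47 ± 0.30) and Cdc20 (3.89 ± 0.38) rose, which encode the mitotic cyclin, 2 mitotic kinases, survivin, a spindle midzone protein and an activator of anaphase. Spc24, a kinetochore subunit, did not pass (-0.22 ± 0.14).

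Most mitosis genes held a shared hexamer near their start. The hexamer TTTGAA, the core of the cell cycle genes homology region (CHR) that the DREAM and MuvB complexes bind, was searched on both strands of the 300-base promoter windows. It was found in 16 of the 20 mitosis genes with a listed promoter (80.0%), in 3 of 27 replication genes (11.1%), and in 1036 of all 8204 genes with a promoter (12.6%). Ccnb1, Birc5, Mad2l1 and Nusap1 rose without the hexamer in their window. The E2F-like octamer TTTCCCGC, on either strand, was found in 6 of 27 replication promoters (22.2%) and in 1.90% of all, and TTTGGCGC in 5 of 27 (18.5%) and in 0.804% of all. A match is a description of letters and not evidence of binding. The windows of Prc1 (chr7:80294201-80294500, plus strand) and Cdc20 (chr4:118437294-118437593, minus strand) are shown as examples of genes that rose, from the same source, with TTTGAA in capitals.
Prc1: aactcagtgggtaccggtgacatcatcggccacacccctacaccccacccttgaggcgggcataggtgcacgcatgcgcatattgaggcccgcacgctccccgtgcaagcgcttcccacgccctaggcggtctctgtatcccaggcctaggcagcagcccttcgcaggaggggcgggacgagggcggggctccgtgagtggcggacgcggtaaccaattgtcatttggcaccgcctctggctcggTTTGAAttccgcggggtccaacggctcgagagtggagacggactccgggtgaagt
Cdc20: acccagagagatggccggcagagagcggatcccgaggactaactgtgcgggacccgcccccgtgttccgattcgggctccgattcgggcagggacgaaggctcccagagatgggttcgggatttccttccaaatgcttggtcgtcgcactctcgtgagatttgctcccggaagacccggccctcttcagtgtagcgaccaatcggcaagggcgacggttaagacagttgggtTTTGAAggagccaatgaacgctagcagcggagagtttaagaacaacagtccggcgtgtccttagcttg
In both windows the hexamer lies on the gene's own strand, close to the start site.

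Genes that respond to p53 and those that stop the cycle rose beside the cycle genes. Cdkn1a, which encodes the cyclin-dependent kinase inhibitor p21, read 3686, 2110, 3975 and 1135 in knockout livers and 197, 353, 168 and 58.7 in control livers (a log2 difference of 3.76 ± 0.66, adjusted p = 4.9e-05). Phlda3, a p53 target that restrains AKT, read 385, 312, 483 and 154 in knockout livers and 10.6, 7.47, 7.11 and 0.293 in control livers (at least 18.8-fold higher, adjusted p = 5.6e-11). The groups did not overlap for either gene. Of 28 measured p53 targets, 18 rose and 3 fell (median 0.87), among them Gtse1 (2.69 ± 0.26), Ccng1 (1.61 ± 0.22), Mdm2 (0.94 ± 0.18), the ligase that degrades p53, and Bax (1.34 ± 0.35), which opens mitochondria in apoptosis. Trp53 itself showed 0.83 ± 0.18 (adjusted p = 3.6e-04). Sesn2 (-0.88 ± 0.25), Ei24 (-0.82 ± 0.14) and Dcxr (-0.81 ± 0.15) fell, and Bbc3, which encodes the death protein PUMA, did not pass (-0.12 ± 0.26). Of 12 measured cell cycle inhibitors 7 rose, including Cdkn2b (at least 7.63-fold higher), which encodes p15, and 1 fell (median 0.86). With no filter on low signal, 6 of the 16 on the array rose and 1 fell, and their median was 0.17.

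Most measured genes of recruited macrophages, neutrophils and stellate cells rose in knockout livers. Of 21 measured genes of recruited macrophages, 19 rose and 1 fell, with a median of 2.29, and the summed intensity of the 6 measured markers was 8314 to 10199 in knockout livers and 767 to 998 in control livers. Trem2, a lipid receptor of macrophages in injured tissue, read 342, 261, 391 and 288 in knockout livers and 7.73, 12.3, -5.36 and 0.576 in control livers (at least 19.4-fold higher, adjusted p = 3.8e-10). Ms4a7, a tetraspan protein of macrophages, read 1243, 662, 1236 and 638 in knockout livers and 34.8, 32.98, 22.5 and 14.8 in control livers (a log2 difference of 4.46 ± 0.28, adjusted p = 2.7e-12). Lgals3, galectin-3, read 5979, 5189, 5240.1 and 4588 in knockout livers and 406, 323, 500.3 and 457 in control livers (a log2 difference of 3.60 ± 0.22, adjusted p = 2.9e-12). Control arrays were low for each of these and none overlapped a knockout array. Another Ms4a7 probe rose by less (1.20). Fabp5, a fatty acid binding protein, was the member that fell (-1.48 ± 0.47), a call lost when the arrays were quantile normalised again.

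Genes of resident Kupffer cells split. Of 13 measured, 7 rose and 2 fell. Clec4f, a lectin made in the liver by Kupffer cells, showed 0.76 ± 0.19, Vsig4, a complement receptor, 1.34 ± 0.25, and Marco, a scavenger receptor, 2.48 ± 0.33, and all 3 rose, Clec4f with overlapping arrays and on 1 of its 2 probes (second probe 0.26). Cd163, the haemoglobin scavenger receptor, fell, with 47.9, 32.3, 41.3 and 28.6 in knockout livers and 148, 156, 123 and 199.8 in control livers (a log2 difference of -1.69 ± 0.31, adjusted p = 8.6e-05). Among measured neutrophil genes 11 of 12 rose, and with no filter on low signal 10 of the 15 on the array did. For 3 of the 12 no control array of any week was above background. The summed marker intensity was 799.9 to 1878 in knockout livers and 13.2 to 78.95 in control livers. Lcn2, which binds bacterial siderophores and is also made by injured hepatocytes, read 10958, 14178, 14479 and 7159 in knockout livers and 66.3, 231, 123 and 103 in control livers (a log2 difference of 6.38 ± 1.20, adjusted p = 9.6e-05). Its control values were all far below its knockout values.

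Lymphocyte genes rose in part. Of 15 measured genes of T and NK cells 7 rose and 1 fell, and that fall was lost without knockout replicate 4, without control replicate 2, 3 or 5, with no filter and when only the week 8 arrays were fitted. The T and NK markers had summed intensities of 431 to 729 in knockout livers and 312 to 383 in control livers. Of the markers of B cells 1 was measured, Cd79b, the B cell receptor subunit, at 143, 117, 204 and 132 in knockout livers and 27.6, 34.1, 51.6 and 27.7 in control livers (a log2 difference of 1.68 ± 0.22, adjusted p = 6.4e-07). Erythroid markers summed to 11132 to 33216 in knockout livers and 11378 to 16320 in control livers, so the groups overlapped. With all arrays 2 of the 5 rose and 1 fell, and without knockout replicate 4 none rose and 1 fell. The mean log2 level of these markers was 8.47, 8.52, 8.44 and 9.49 on knockout replicates 1 to 4, so replicate 4 alone was high, and 8.39 to 8.73 on the control arrays. Markers of pancreas summed to 232 to 406 in knockout livers and 992 to 1477 in control livers, with 1 of 3 lower, and those of fat and muscle had no member past the test. What part of each gene group's change these cell types account for was not tested.

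Stellate cells store retinoids and lay down matrix in the injured liver. Of 31 measured stellate cell and matrix genes 27 rose and 0 fell, with a median of 1.69, and the 9 markers summed to 18952 to 23064 in knockout livers and 6926 to 7845 in control livers. Col1a1, a chain of type I collagen, read 106, 96.8, 149 and 129.9 in knockout livers and 7.32, 8.87, -9.20 and -9.65 in control livers (at least 7.26-fold higher, adjusted p = 6.5e-08). Acta2, the smooth muscle actin of activated stellate cells, read 788, 1029.8, 257 and 1648 in knockout livers and 110.4, 86.6, 156 and 43.7 in control livers (a log2 difference of 2.87 ± 0.62, adjusted p = 4.7e-04). Timp1, an inhibitor of matrix-degrading proteases, read 123, 181, 118 and 166 in knockout livers and -5.82, 1.80, -2.68 and -0.0500 in control livers (at least 8.86-fold higher, adjusted p = 1.4e-08). None of the 3 overlapped between the groups. Of the other Acta2 probes, those at 2.05 and 1.06 passed and that at 0.40 did not. The collagen crosslinkers Lox (at least 2.37-fold higher) and Loxl1 (2.83 ± 0.30), elastin Eln (at least 6.16-fold higher) and lumican Lum (3.51 ± 0.22) rose as well, whereas Des (0.13 ± 0.20), which encodes desmin, and Lrat (0.10 ± 0.27), which makes retinyl esters, did not pass.

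Endothelial genes split. The 6 endothelial markers summed to 3355 to 5429.6 in knockout livers and 5684 to 6563 in control livers, with 1 higher and 2 lower. Of 24 measured endothelial genes 4 rose and 7 fell, set against shares of 24.9% and 24.0% over all genes. Gpr182, a receptor of sinusoidal endothelium, showed -1.66 ± 0.21, Dnase1l3, a secreted DNase, -1.08 ± 0.14, and Oit3 -0.92 ± 0.18, and all 3 fell. Plvap (1.25 ± 0.12) and Vwf (1.39 ± 0.27), which mark vessels other than sinusoids, rose. Among biliary and progenitor genes 8 of 15 rose and 2 fell, with 0 falls when knockout replicate 3 was left out. Spp1 (2.76 ± 0.25), which encodes osteopontin, Cldn4 (at least 33.8-fold higher), a tight junction claudin, and Sox9 (at least 1.63-fold higher), a transcription factor of bile ducts, rose, while the biliary keratin Krt7 (-0.24 ± 0.31) did not pass.

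Interferon-stimulated genes, the antiviral programme that cells start after sensing foreign nucleic acid, rose in 28 of 40 measured cases and fell in 1 (median 1.15). Oas1g, which makes the second messenger that activates RNase L, read 2404, 1901, 2741 and 2187 in knockout livers and 118, 139, 125 and 88.1 in control livers (a log2 difference of 4.12 ± 0.22, adjusted p = 2.9e-13). Rsad2, the antiviral enzyme viperin, read 9598, 3686, 7909 and 3753 in knockout livers and 552, 418, 489 and 423 in control livers (a log2 difference of 3.56 ± 0.29, adjusted p = 2.9e-10). Irf7, the factor that amplifies the response, read 789, 695, 741 and 395 in knockout livers and 139.8, 134, 176 and 138 in control livers (a log2 difference of 2.003 ± 0.23, adjusted p = 9.4e-08). The 4 control arrays were below the 4 knockout arrays for each. Ifit3 (2.53 ± 0.24), Usp18 (2.55 ± 0.28) and the chemokine Cxcl10 (3.50 ± 0.37) rose too, and Zbp1, a sensor of Z-form nucleic acid, fell (-0.51 ± 0.18), a call lost without knockout replicate 3 (-0.46) or control replicate 4 (-0.42).

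Of 15 measured sensors and their adaptors 9 rose and 2 fell. Tlr7 (2.49 ± 0.25), the endosomal receptor for single-stranded RNA, Eif2ak2 (1.42 ± 0.18), the kinase PKR that binds duplex RNA, and Samhd1 (1.49 ± 0.16), which depletes nucleotides, rose. Mavs, the mitochondrial adaptor of the RNA helicase sensors, fell (-0.92 ± 0.17). MHC class II genes rose in 8 of 12 cases, among them H2-Ab1 (1.10 ± 0.26), a chain of the class II molecule, Cd74 (1.22 ± 0.26), its invariant chain, and Ciita (at least 1.87-fold higher), the transactivator of both. Among chemokines and cytokines 16 of 24 rose. Ccl4, a ligand that draws monocytes and T cells, read 1886, 690.2, 761 and 751 in knockout livers and 25.6, 4.49, 27.9 and 16.99 in control livers (a log2 difference of 4.83 ± 0.34, adjusted p = 2.3e-11). Il18 (-0.92 ± 0.16) was among the 3 that fell.

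Genes of the NRF2 pathway, which defends cells against oxidants and electrophiles, rose in 25 of 38 measured cases and fell in 5. Slc7a11, the cystine importer that feeds glutathione synthesis, read 2147, 1658, 2929 and 1396 in knockout livers and -12.7, -4.35, -5.48 and -14.9 in control livers (at least 119.5-fold higher, adjusted p = 1.8e-15). Cbr3, a carbonyl reductase, read 8920.4, 4986, 7007 and 3891 in knockout livers and 42.3, 36.8, 49.02 and 48.8 in control livers (a log2 difference of 6.62 ± 0.31, adjusted p = 1.3e-14). Nqo1, the quinone reductase, read 756, 379.6, 854 and 606 in knockout livers and 32.02, 37.98, 42.03 and 40.8 in control livers (a log2 difference of 3.56 ± 0.29, adjusted p = 3.8e-10). Both groups stood apart on every array for these genes. Srxn1 (3.72 ± 0.24), Hmox1 (2.34 ± 0.37) and G6pdx (2.13 ± 0.22) rose. The glutathione transferases, whose close copies can share probe signal, split: Gsta1 (5.74 ± 0.76), Gsta2 (4.21 ± 0.50) and Gstp2 (4.98 ± 0.48) rose, whereas Gstp1 (-0.85 ± 0.18) and Gstt1 (-0.92 ± 0.19) fell.

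Serine and asparagine synthesis and other ATF4 targets rose in 10 of 23 measured cases and fell in 4. Slc1a4, a transporter of serine and alanine, read 2121, 1507, 2358 and 1241 in knockout livers and 61.7, 16.3, 57.6 and 16.4 in control livers (a log2 difference of 5.16 ± 0.32, adjusted p = 2.9e-12). Asns, asparagine synthetase, read 5024, 1827, 3225 and 1201 in knockout livers and 187, 305, 215 and 156 in control livers (a log2 difference of 3.45 ± 0.61, adjusted p = 4.5e-05). Both were higher on every knockout array than on any control array. Psat1 (3.52 ± 0.42), Mthfd2 (at least 3.49-fold higher) and Ddit3 (1.68 ± 0.23), which encodes CHOP, rose, while Chac1 (-1.31 ± 0.21) and Shmt2 (-0.47 ± 0.13) fell. Atf4 itself did not pass (-0.35 ± 0.16) except when its probes were averaged (-0.48) or only the week 8 arrays were fitted, and Trib3 did not pass (0.39 ± 0.33). Endoplasmic reticulum stress genes showed 0 rises and 2 falls among 15 measured.

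Many groups of hepatocyte genes held more falls than rises, to unequal depth. The plasma proteins kept much of their signal: of 38 measured secreted proteins 2 rose and 16 fell, with a median of -0.20, and Ttr (0.04 ± 0.12) and Trf (-0.07 ± 0.09), which encode transthyretin and transferrin, did not pass. The Alb probe read 104, 145, 92.8 and 109 in knockout livers and 997, 951, 972 and 925 in control livers (a log2 difference of -2.94 ± 0.16, adjusted p = 3.3e-13). Its control values were low for this group, whose mean log2(intensity + 16) was 13.1 on the control arrays. Whether this probe reports the main albumin transcript was not tested. Of 20 coagulation genes 13 fell and 1 rose, with Pros1, protein S, as the rise (0.53 ± 0.16). F11, clotting factor XI, read 742, 1328, 583 and 1516 in knockout livers and 3919, 4461, 4093 and 3383 in control livers (a log2 difference of -2.01 ± 0.23, adjusted p = 8.6e-08). F7 (-2.33 ± 0.21), F9 (-1.28 ± 0.21) and Proc (-0.82 ± 0.11), protein C, fell as well.

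**Figure D2:**
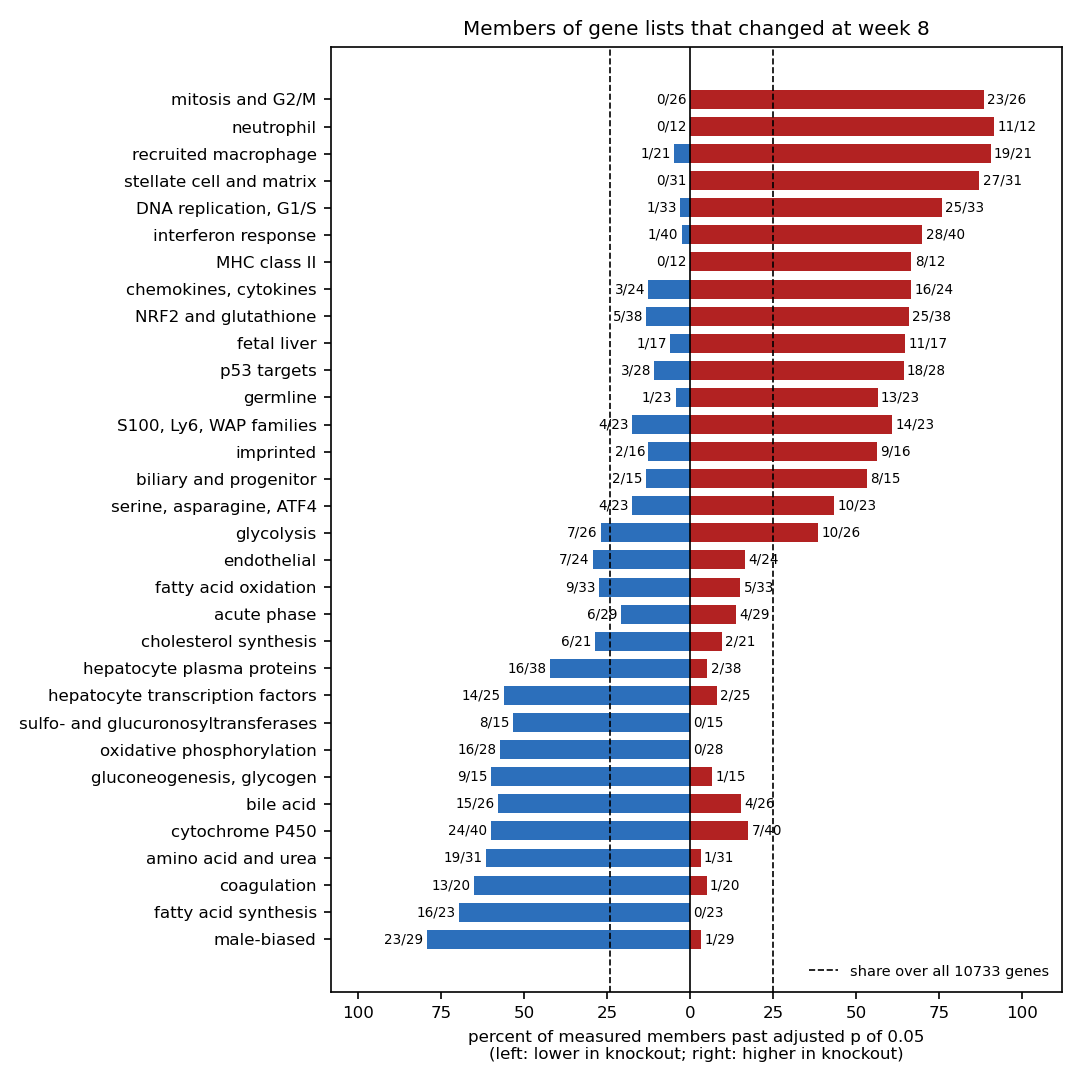
For each gene group, bars give the percent of measured members that rose (red, to the right) or fell (blue, to the left) in knockout livers at week 8, with the counts at the bar ends and dashed lines at the shares over all genes, 24.9% and 24.0%. Mitosis genes, with 23 of 26 higher, stand at the top and male-biased genes, with 23 of 29 lower, at the bottom.

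Genes of nitrogen and bile acid metabolism fell in most measured cases. Of 31 measured genes of amino acid breakdown and the urea cycle 19 fell and 1 rose (median -0.70). Otc, the urea cycle enzyme ornithine transcarbamylase, read 55.8, 112, 31.01 and 78.2 in knockout livers and 517, 518, 536 and 504 in control livers (a log2 difference of -2.74 ± 0.22, adjusted p = 2.2e-10). The groups did not overlap, and another Otc probe fell by 1.40. Tdo2 (-1.89 ± 0.27), which breaks down tryptophan, and Haao (-1.60 ± 0.19), of the same route, fell, Oat, ornithine aminotransferase, rose (0.51 ± 0.15), and Cps1 (-0.15 ± 0.16) and Ass1 (0.18 ± 0.19), which act at other steps of the urea cycle, did not pass. Of 26 bile acid genes 15 fell and 4 rose. Cyp7b1, the hydroxylase of the alternative synthesis route, read 1589.8, 1117, 3194 and 999.9 in knockout livers and 13292, 18348, 13679 and 9876 in control livers (a log2 difference of -3.11 ± 0.35, adjusted p = 7.8e-08). Slc10a1, the transporter NTCP that takes bile acids up from blood, read 6.27, -5.36, 6.45 and 8.64 in knockout livers and 104, 91.9, 72.3 and 88.1 in control livers (at least 5.40-fold lower, adjusted p = 1.8e-09). The exporters Abcb4 (0.78 ± 0.12) and Abcc2 (0.95 ± 0.19) rose, Abcc2 on 1 of its 2 probes (second probe 0.35), while the bile salt pump Abcb11 fell (-0.96 ± 0.16).

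Fat and sugar metabolism shifted within pathways. Lipogenesis fell in 16 of 23 measured genes, with 0 rises (median -1.34). Thrsp, a lipogenic protein that responds to thyroid hormone, read 60.5, 57.8, 88.2 and 147 in knockout livers and 11106, 6439.6, 1876 and 5035 in control livers (a log2 difference of -5.69 ± 0.53, adjusted p = 3.7e-09). Srebf1 (-1.68 ± 0.36) and Mlxipl (-1.93 ± 0.20), the transcription factors that respond to insulin and to glucose, fell, as did Scd1 (-1.34 ± 0.28), the desaturase. Cidec, a lipid droplet protein, went the other way, with 261, 279, 370.5 and 90.8 in knockout livers and 7.32, -11.6, 16.7 and -3.32 in control livers (a log2 difference of 3.52 ± 0.59, adjusted p = 2.4e-05). Pdk4, the kinase that shuts pyruvate out of the citrate cycle, read 353, 520, 1153 and 401 in knockout livers and 28.3, 43.3, 24.96 and 21.4 in control livers (a log2 difference of 3.64 ± 0.39, adjusted p = 3.3e-08).

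Among glycolytic genes the isozymes of most other tissues and those of the adult liver moved in opposite directions. Pkm (2.43 ± 0.19), the pyruvate kinase of muscle and dividing cells, Pfkp (2.33 ± 0.26), Slc2a1 (1.33 ± 0.18) and Hk3 (1.25 ± 0.23) rose. Pklr (-2.34 ± 0.37), Slc2a2 (-2.25 ± 0.39), the liver glucose transporter, and Khk (-1.96 ± 0.22), which phosphorylates fructose, fell. Of 26 measured genes of this group 10 rose and 7 fell. Gluconeogenesis and glycogen genes fell in 9 and rose in 1 of 15 cases. The falls included Pck1 (-1.22 ± 0.24) and G6pc (-0.98 ± 0.23), which carry out regulated steps of gluconeogenesis.

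Cytochrome P450 genes fell in 24 and rose in 7 of 40 measured cases, with the caveat that the family's close copies can share probe signal. Cyp2c29 read 30.1, 33.9, 21.7 and 143 in knockout livers and 1536, 1058, 1304 and 1607 in control livers (a log2 difference of -4.49 ± 0.35, adjusted p = 1.5e-10). Cyp2d40 (-3.13 ± 0.26) and Cyp2d13 (-3.68 ± 0.26) fell as well. The P450 genes that rose were Cyp2a5 (1.90 ± 0.39), Cyp2b9 (at least 19.9-fold higher), Cyp2b13 (at least 7.60-fold higher), Cyp2c55 (2.10 ± 0.38), Cyp4a14 (2.84 ± 0.999), Cyp1b1 (at least 1.38-fold higher) and Cyp3a11 (0.56 ± 0.18), the last with overlapping arrays. The call of Cyp4a14 was lost without control replicate 2 (2.57) or 3 (2.19), and that of Cyp3a11 without knockout replicate 4 (0.47) or control replicate 3 (0.46). Other large falls in drug and hormone metabolism were Ces3b (-4.55 ± 0.32), a carboxylesterase, Sult2a8 (-7.18 ± 0.38) and Sult5a1 (at least 9.61-fold lower), sulfotransferases, Ugt3a1 (-3.51 ± 0.28), a glycosyltransferase, and Dio1 (-3.75 ± 0.44), the deiodinase that activates thyroid hormone.

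Of 25 measured hepatocyte transcription factors and their classic targets 14 fell and 2 rose (median -0.49), the rises being Afp, described above, and Gata6 (0.98 ± 0.21). Cebpa, a master factor of hepatocyte differentiation, read 181, 240, 175 and 224 in knockout livers and 465, 519, 551 and 531 in control livers (a log2 difference of -1.28 ± 0.15, adjusted p = 2.3e-07). Nr1i3, the drug-sensing receptor CAR, showed -1.61 ± 0.26, Nr5a2 -1.37 ± 0.18, and Ppara, the receptor that drives fat oxidation, -1.08 ± 0.24. Hnf4a, which maintains the adult hepatocyte, fell by less (-0.36 ± 0.11). Il1rap, the coreceptor for interleukin 1, read 138, 542, 252 and 836 in knockout livers and 3499, 2856, 3383 and 3214 in control livers (a log2 difference of -3.12 ± 0.31, adjusted p = 9.3e-09). Of its other probes, those at -3.18, -3.16, -3.09 and -0.89 passed and that at -0.35 did not.

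Deep falls also came from genes of varied function. Serpina3k, a secreted protease inhibitor of a family with close copies, showed -3.19 ± 0.36. Car3, carbonic anhydrase 3, read 739.7, 1350, 858 and 5846 in knockout livers and 13974, 16436, 12335 and 12335 in control livers (a log2 difference of -3.17 ± 0.54, adjusted p = 3.1e-05). Nox4, an oxidase that makes hydrogen peroxide, read 37.1, 91.8, 84.7 and 54.4 in knockout livers and 811, 657, 915 and 856 in control livers (a log2 difference of -3.36 ± 0.32, adjusted p = 5.3e-09). Car3 and Nox4 were lower on every knockout array than on any control array. Inmt (-3.06 ± 0.68), a methyltransferase for indolamines, Slc17a8 (-3.06 ± 0.47), a vesicular glutamate transporter, Susd4 (-3.52 ± 0.31), a regulator of complement, and Dct (at least 26.3-fold lower), a melanin pathway enzyme, fell as well.

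Mitochondrial and circadian groups fell in part. Of 28 measured respiratory chain genes 16 fell and 0 rose (median -0.30), with Sdhd (-1.56 ± 0.14), a subunit of complex II, and Ndufb9 (-1.47 ± 0.14), of complex I, as examples. Of 20 clock genes and clock outputs 8 fell and 0 rose, and 4 fell without knockout replicate 1. Rgs16, an inhibitor of G protein signalling with a daily rhythm in liver, read 11.4, 18.6, 6.86 and 65.8 in knockout livers and 3061, 1876, 1344 and 3567 in control livers (a log2 difference of -5.98 ± 1.05, adjusted p = 4.2e-05), while the core clock genes Per1 (0.12 ± 0.51) and Arntl (0.32 ± 0.58) did not pass. The labels give no hour of collection. Ribosomal protein genes rose in 12 and fell in 3 of 22 cases, with a median of only 0.25.

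Sex-biased liver genes, which follow the male pulsatile or female continuous pattern of growth hormone, were among the deepest falls. Of 29 measured male-biased genes 23 fell and 1 rose, with a median of -1.80. Without knockout replicate 4, 21 fell and 1 rose. Hsd3b5, a steroid reductase of the male liver, read 13.6, 13.3, 32.3 and -0.651 in knockout livers and 13187, 13353, 11408 and 10026 in control livers (a log2 difference of -8.70 ± 0.66, adjusted p = 1.2e-10). Elovl3, a fatty acid elongase of the male liver, read 3.27, -2.85, 8.06 and -6.69 in knockout livers and 1270.3, 1519, 1098 and 776 in control livers (at least 69.3-fold lower, adjusted p = 1.9e-11). Mup4, a major urinary protein of a family with nearly identical copies, read 19.21, 31.2, 27.6 and 24.3 in knockout livers and 3365, 5642, 4149 and 3571 in control livers (a log2 difference of -6.64 ± 0.42, adjusted p = 3.6e-12). All knockout arrays were below all control arrays for these 3, and the 3 knockout arrays with Y-linked signal were low as well. The rise in the male-biased group was Gstp2.

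Of 18 measured female-biased genes 10 rose and 2 fell, and both counts were the same without replicate 4. Several had their highest value on that array. Cyp2b9 read 171, 222, 135 and 2170.4 in knockout livers and 0.569, 5.48, 7.90 and 12.2 in control livers (at least 19.9-fold higher, adjusted p = 4.8e-04). A1bg, a plasma glycoprotein of the female liver, read 92.2, 155, 45.5 and 1715 in knockout livers and -4.68, -7.43, -8.12 and 8.91 in control livers (at least 11.2-fold higher, adjusted p = 7.8e-05). The other knockout arrays also exceeded all controls for both genes, by less than replicate 4. Without replicate 4 the differences were 3.09 ± 0.82 for Cyp2b9 (adjusted p = 0.0033) and 2.55 ± 0.47 for A1bg (adjusted p = 9.2e-05), each fitted with the offset of 16, against 3.98 ± 0.86 and 3.56 ± 0.66 with all 4 arrays. In the growth hormone pathway 6 of 17 genes fell, among them its receptor Ghr (-1.18 ± 0.15), and Igfbp3, an IGF carrier, rose (0.98 ± 0.28). The other 10 did not pass, and the median was -0.20. Over all genes 24.0% fell and 24.9% rose.

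The 4 knockout arrays differed from one another more than the control arrays did. Mean log2 levels over each gene group were taken per array. For germline genes they were 7.14, 6.46, 7.08 and 6.31 on knockout replicates 1 to 4, and 4.68 to 4.81 on the control arrays. For interferon genes they were 9.43, 9.09, 9.58 and 9.07 on the knockout arrays and 7.93 to 7.97 on the control arrays. Both groups were thus higher on knockout replicates 1 and 3 than on 2 and 4. The amino acid and urea genes ran opposite, with 10.39, 10.88, 10.25 and 10.87 on the knockout arrays and 11.39 to 11.46 on the control arrays, as did coagulation genes with 11.19, 11.66, 11.25 and 11.61 on the knockout arrays and 12.11 to 12.21 on the control arrays. Replicates 2 and 4 lay closer to the controls in all 4 of these groups. Mitosis genes had another order, with 7.29, 7.64, 7.46 and 8.12 on the knockout arrays and 5.11 to 5.34 on the control arrays, highest on replicate 4. No group mean of a knockout array fell within the control range in these 5 groups.

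**Figure D3:**
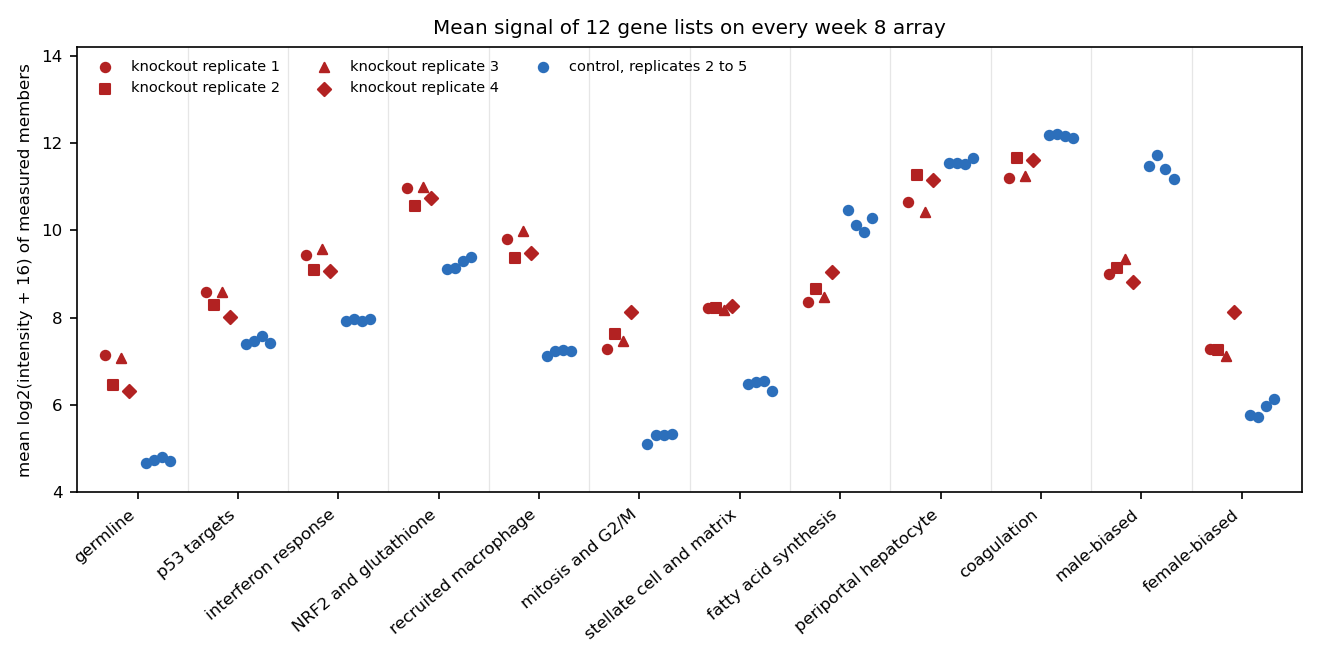
The y axis gives the mean log2(intensity + 16) over the measured genes of 12 gene groups on each week 8 array, with a red symbol for each knockout replicate and blue points for the controls. Germline and interferon means are highest on knockout replicates 1 and 3, coagulation means are lowest there, and mitosis and female-biased means are highest on replicate 4.

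The week 8 difference was also set against the knockout-minus-control differences at weeks 4 and 20, which have control arrays of their own. The control arrays of week 20 were widely spread in some groups. Neutrophil genes summed to 228 to 31666 on them, against 138 to 279 on the week 8 control arrays. Clock genes averaged 7.34 to 9.27 on the log2 scale, against 8.34 to 8.63 at week 8. The threshold was passed by 27.2% of genes at week 4, 48.9% at week 8 and 5.66% at week 20, where 3.44% were higher and 2.23% lower; at week 4 it was 14.8% and 12.4%. The test of the change between weeks passed for 8.94% of genes from week 4 to week 8, 598 with a higher (5.57%) and 361 with a lower (3.36%) difference at week 8. Against week 20 it passed for 31.1%, 1817 higher (16.9%) and 1525 lower (14.2%) at week 8. Over measured members, median differences at weeks 4, 8 and 20 were 1.75, 1.56 and 0.13 for germline genes and 0.62, 2.24 and 0.18 for fetal liver genes. For mitosis genes they were 0.88, 2.55 and 0.31. The germline median was thus as high at week 4 as at week 8, and those of the other groups were lower at week 4.

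Single genes show the same contrast. The difference of Rhox5 was 7.47 ± 0.28 at week 4, 7.47 ± 0.28 at week 8 and 4.44 ± 0.28 at week 20, and its change between weeks 4 and 8 did not pass (adjusted p = 0.996). That of H19 was 3.46 ± 0.39 at week 4, 9.28 ± 0.39 at week 8 and 0.42 ± 0.39 at week 20, and the gain of 5.82 ± 0.56 between weeks 4 and 8 passed (adjusted p = 1.2e-07). That of Slc7a11 was 1.83 ± 0.29 at week 4, 6.94 ± 0.29 at week 8 and 0.06 ± 0.29 at week 20, with a gain of 5.11 ± 0.41 (adjusted p = 7.9e-09). These fitted values depend on the offset of 16. H19 and Slc7a11 lay at background on every week 8 control array, and Rhox5 on all but control replicate 3. Of the 26 mitosis genes 14 had a higher difference at week 8 than at week 4 past that test, and of the 17 fetal liver genes 10 did.

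For sex-biased genes the controls themselves differed between weeks. Control means of Cyp2b9 were 4718 at week 4, 6.53 at week 8 and 174 at week 20. Those of Elovl3 were 13.1, 1166 and 733 at weeks 4, 8 and 20. Nat8, an acetyltransferase of liver and kidney, read 1191, 688, 934 and 512 in week 8 knockout livers and 1104, 1143, 1125 and 839 in week 8 control livers, so the groups overlapped at week 8. The difference did not pass with all arrays, and passed without knockout replicate 1 (-0.59). Its difference at week 8 minus that at week 4 was nonetheless -5.87 ± 0.32 (adjusted p = 6.4e-12), since at week 4 the mean was 1431 in knockout livers and 16.4 in control livers. Of the 29 male-biased genes 18 had a lower difference at week 8 than at week 4, and 21 a lower one than at week 20.

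**Figure D4:**
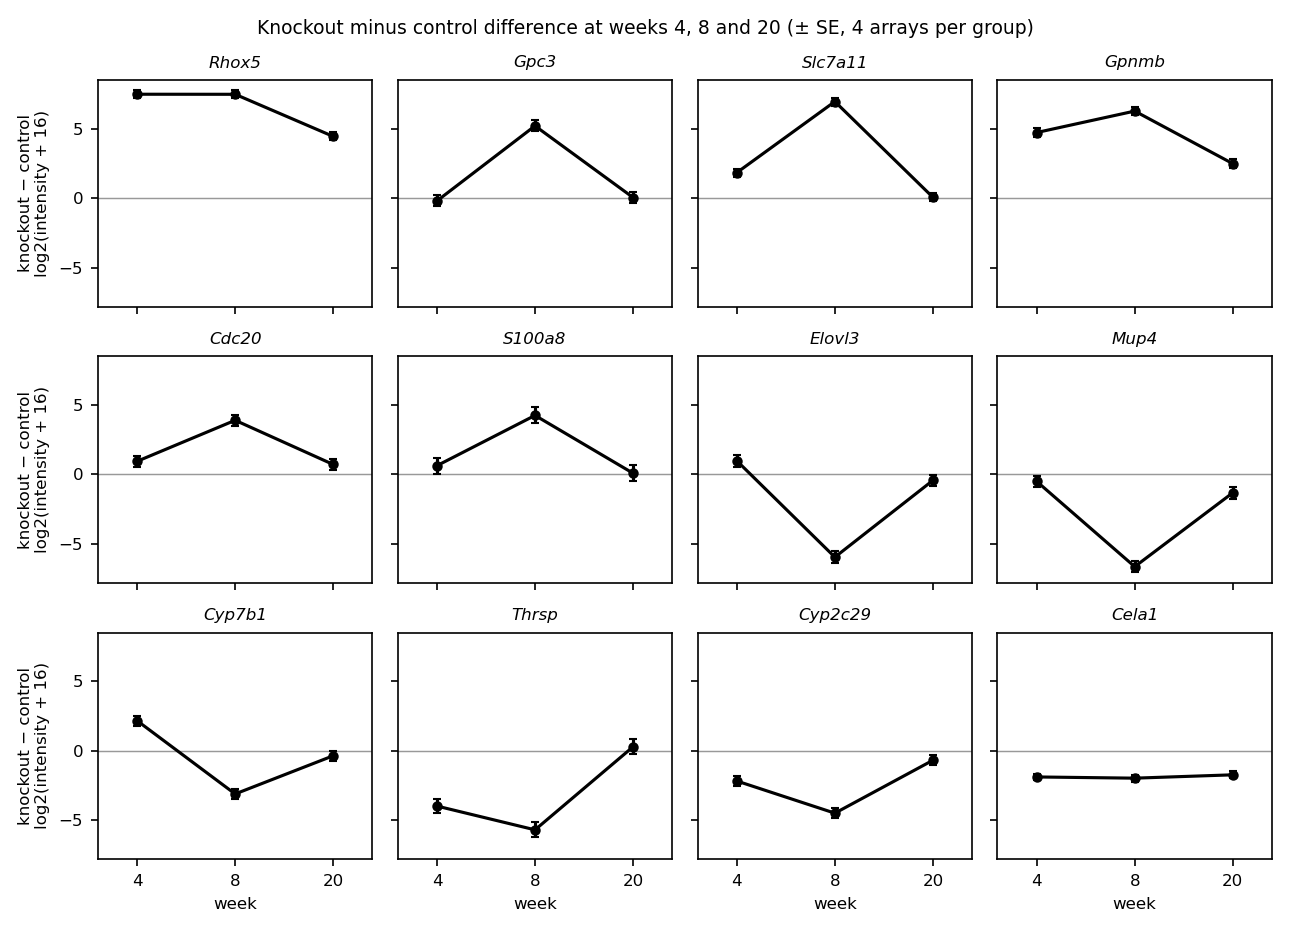
Each panel gives 1 gene's knockout-minus-control difference in log2(intensity + 16) at weeks 4, 8 and 20, with bars of 1 SE. Gpc3, Slc7a11, S100a8, Elovl3 and Mup4 lie farthest from 0 at week 8, Rhox5 is as high at week 4 as at week 8, and Cela1 is about the same at all 3 weeks.

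RefSeq promoter windows were available for 8204 of the 10733 genes and were compared by their number of CG sites. Windows of all tested genes held a median of 19 CG, and 15.1% held 5 or fewer. Among genes that rose by at least 3 on the log2 scale the median was 7 and 40.3% held 5 or fewer (48 of 119). Among genes that fell by at least 3 the median was 3.5 and 72.7% held 5 or fewer (16 of 22). Genes at background in control livers and above it on all knockout arrays had a median of 12, with 33.0% at 5 or fewer (88 of 267). The CG-poor windows were thus frequent among the largest rises and the largest falls.

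Counted by promoter class, genes with 0 to 5 CG rose in 28.8% and fell in 26.3% of cases, those with 6 to 14 CG in 26.5% and 25.2%, and those with 15 or more in 22.3% and 23.3%. The share switched on from background was 7.11%, 3.80% and 2.18% over these classes. Gene groups differed: 0 of 20 mitosis promoters and 1 of 27 replication promoters held 5 or fewer CG, against 10 of 21 male-biased (47.6%), 9 of 28 interferon (32.1%) and 3 of 18 germline promoters (16.7%). These counts describe sequence, and methylation was not measured here.

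**Figure D5:**
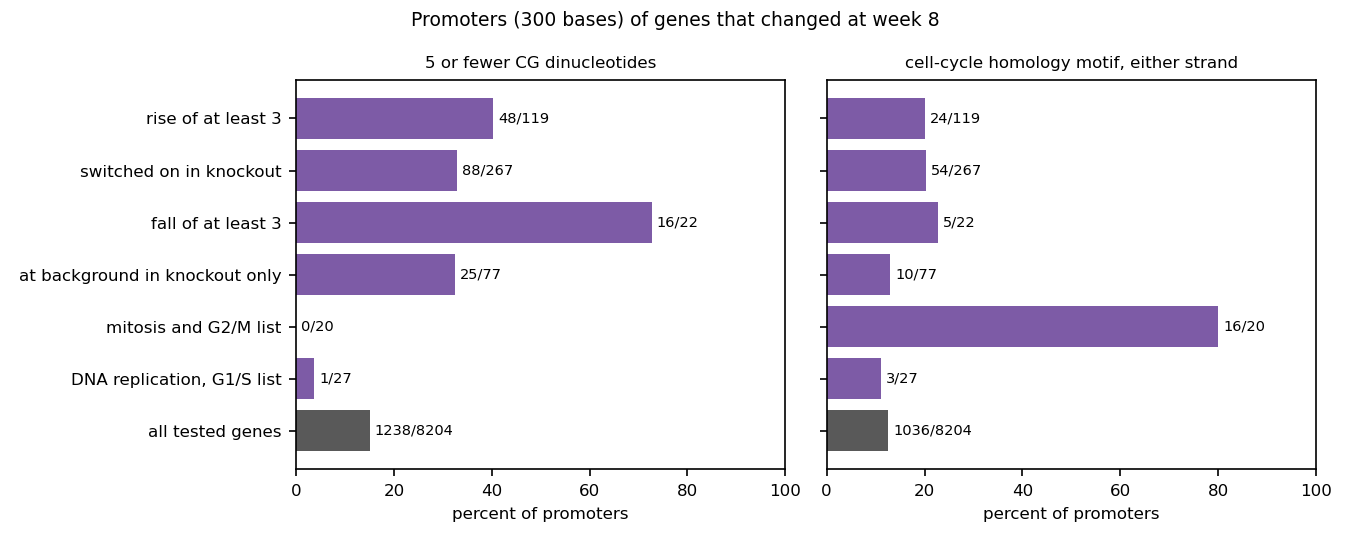
Bars give the percent of 300-base promoters with 5 or fewer CG (left) and with the cell cycle homology hexamer on either strand (right), for classes of genes by their week 8 change, 2 gene groups and all tested genes, with counts at the bar ends. CG-poor promoters make up 72.7% of genes that fell by at least 3, and the hexamer is in 80.0% of mitosis promoters.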

How the data were processed

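Mouse liver RNA was hybridised to Illumina arrays, 1 sample per array. The deposited values are linear intensity per probe, made with GenomeStudio 2011 per the submitters' processing notes. The values themselves show background subtraction (27.8% are negative) and column medians of 13.3 to 13.6, as after quantile normalization, but neither step is given in the sources used here. A table of non-normalized values has 48 columns whose names match no sample label; it was used only to pair probes with gene symbols. Symbols were updated through RefSeq (GRCm38.p6): 20733 probes had a current symbol, 3871 were updated, 1062 kept and 31 had none.

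Intensities below 0 were set to 0 and log2(intensity + 16) was taken. A probe counted as above background over 16.3, which is 2.33 times a noise SD of 7.03 estimated from the negative values. Of 14536 probes above background on at least 4 of 24 arrays, the brightest per gene was kept (10733 genes). limma 3.58.1 (R 4.3.3) fitted 6 group means over all 24 arrays with a trended prior, and p-values were adjusted by the Benjamini-Hochberg method. Tables and figures were made with Python 3.11.15, numpy 2.4.6, pandas 2.3.3, scipy 1.17.1 and matplotlib 3.10.9. The test was checked on simulated data.

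A fold given as a lower bound compares the mean of the bright genotype with that of the dim one, taking per dim array the higher of the lowest signal above background and the probe's own. The comparison, gene groups and genes were chosen with earlier results of these data known. Named genes were the 30 largest rises and falls with non-overlapping arrays, the 10 largest differences between weeks each way, and gene group members past the threshold, of which a part is printed; a few such genes are not reported here. Members that did not pass, Pigr and the other probes of a gene were picked after their values were seen. Alternatives were an offset of 50, a floor of 16, renewed quantile normalization, no filter, mean over probes, array weights, no trend, week 8 arrays alone, the replicate block, and leaving out each array.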

Additional observations from a re-analysis of the deposited data

Results flagged for a closer look

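The knockout-minus-control difference of some genes was not the same at week 8 as at another week, by limma's test of the difference between the weeks over all genes (Benjamini-Hochberg). Among those with the largest gain at week 8 over week 4 were Igf2 (5.85), H19 (5.82), Cyp2b9 (5.71), Gpc3 (5.40), Slc7a11 (5.11), Cyp2b13 (4.95), Igf2bp3 (3.99), Spink1 (3.88) and Slc1a4 (3.66), all fitted differences on the log2 scale. H19, Cyp2b9, Gpc3, Slc7a11, Cyp2b13 and Igf2bp3 lay at background on every control array at week 8, so their sizes and their order depend on the offset of 16. They include growth genes of the fetal liver, female-biased enzymes and amino acid transporters. The 10 with the largest loss were Elovl3 (-6.93), Mup4 (-6.13), Nat8 (-5.87), Cyp7b1 (-5.27), Cyp4a12b (-5.24), Obp2a (-5.12), Mup5 (-4.91), Hsd3b5 (-4.70), Serpina12 (-4.65) and Mup6 (-4.62). The offset also sets the size for Elovl3, at background on every week 8 knockout array, and for Hsd3b5, at background on all but replicate 3. Further genes follow the same pattern as a set. Several of the 10 are male-biased liver genes, and the control means themselves differed between weeks: at week 4 Cyp2b9 averaged 1385 in knockout livers and 4718 in control livers, against 675 and 6.53 at week 8. Cyp4a12b averaged 1261 in knockout livers and 35.6 in control livers at week 4, and 3925 and 4761 at week 8, where its difference did not pass.

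Against week 20 the largest gains at week 8 were in H19 (8.86), Lcn2 (6.93), Slc7a11 (6.89), Igf2 (6.58), Ly6d (6.21), Cbr3 (5.84), Slc1a4 (5.77), Wfdc3 (5.33), Cyp2b9 (5.25) and Gpc3 (5.15). The largest losses were in Rgs16 (-7.11), Hsd3b5 (-6.67), Sult2a8 (-6.36), Serpina4-ps1 (-6.21), Thrsp (-5.97), Elovl3 (-5.52), Mup4 (-5.31), Mup5 (-4.71), Lpin1 (-4.49) and Ces3b (-4.43). The offset sets the size in the same way for Ly6d and Wfdc3, at background on every control array at week 8. It does so for Elovl3 and Serpina4-ps1, at background on every knockout array, and for Hsd3b5, at background on all but replicate 3. Thrsp and Lpin1 belong to lipid synthesis, and Rgs16 has a daily rhythm in liver. The week 20 control arrays were widely spread in neutrophil and clock genes, and differences against week 20 rest on those arrays.

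Single arrays stood far from the others of their group by Dixon's ratio, the gap to the nearest array over the range of the 4, which was compared with the 95% critical value for 4 arrays. Of the 462 week 8 groups with at least 1 array above background, over the genes named here, 24 (5.19%) exceeded that value, and chance alone gives about 1 in 20. Knockout replicate 4 was low in the Y-linked genes Eif2s3y (ratio 0.974) and Ddx3y (0.857) and high in Xist (0.845), Cyp2b9 (0.829) and Ndufb9 (0.885). Other knockout arrays stood apart in Igf2bp3 (0.978, replicate 1 high), Ccl4 (0.904, replicate 1 high), Spink1 (0.899, replicate 2 high) and Clec4f (0.855, replicate 2 low). Control replicate 3 stood apart in Lum (0.976), Rhox5 (0.900), Shmt2 (0.892) and Pck1 (0.833), where it was high, and in Ugt3a1 (0.866), E2f1 (0.863), Marco (0.852) and Mcm2 (0.846), where it was low. The remaining control arrays were replicate 2 in Per1 (0.965) and Mavs (0.959), replicate 4 in Alpl (0.886) and Irf7 (0.841), all high, and replicate 5 in Nat8 (0.888, low), Hmox1 (0.864, high) and Loxl1 (0.857, low).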

How the results depend on the processing

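The counts at week 8 kept within 1.5 times of 2670 higher and 2577 lower genes under all 17 alternatives, which ran from 2078 to 2784 higher and from 1756 to 2737 lower. Leaving out 1 week 8 array gave 2374 to 2592 higher and 2253 to 2471 lower. Replicate numbers 2, 3 and 4 occur in both genotypes, but arrays of the same number did not deviate together (correlations 0.025, 0.041 and -0.032), so the numbers do not pair them. The fit with the replicate number as a block, over these 6 arrays, gave the lowest counts, 2078 higher and 1756 lower, lost 9 calls among the genes named (Bex1, Ddx4, Gnas, Hnf4a, Mbd3, Sox9, Uhrf2, Zbp1 and Zbtb33) and added that of Nat8. The test of week 8 against week 4 gave 446 to 747 genes with a higher and 256 to 507 with a lower difference, and that against week 20 gave 1574 to 1853 and 1363 to 1580. The Dnmt1 difference was -0.23 with an offset of 50 and -0.35 to -0.27 when 1 array was left out. Of the 257 genes named, 230 passed at week 8 and 216 of these passed under every alternative. The call of Uhrf2 reversed, to -0.045, when the probes of a gene were averaged, which brings in a probe of opposite sign. Among gene groups with over 3 members called, counts moved by over 1.5 times for clock genes (8 lower, 4 without knockout replicate 1), fatty acid oxidation (5 higher, 3 and 2 without control replicates 2 and 3, 9 with the block), pericentral genes (4 higher, 2 without control replicate 3), and, with the block, respiratory chain (16 lower, 9) and ribosomal protein genes (12 higher, 7). The cause was not tested. In simulated arrays of the same size only a small part of the genes was changed. The test recovered 25.3% of genes changed by 0.5 on the log2 scale, 68.0% at a change of 1 and 99.3% at 2. In the data 48.9% of genes passed, which makes the adjusted threshold less strict than in the simulation. These rates therefore do not give the share of small changes missed here. Signals near background and the number of arrays limit the precision.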

Other observations

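Hepatocytes differ along the lobule, from the portal vein, where urea and glucose are made, to the central vein, where WNT signals sustain glutamine synthesis and drug metabolism. Of 25 measured periportal genes 14 fell and 4 rose in knockout livers, with a median of -0.53. Pigr, which carries antibodies into bile, read 119, 696, 62.6 and 861 in knockout livers and 1933, 2170.4, 2153 and 2025 in control livers (a log2 difference of -2.87 ± 0.50, adjusted p = 3.7e-05). Its knockout values were spread over a wide range, all below the controls. Asl (-1.36 ± 0.26), of the urea cycle, and Hal (-1.32 ± 0.26), which breaks down histidine, fell too. Of 22 measured pericentral genes 9 fell and 4 rose (median -0.26). Cyp2c37 (-1.82 ± 0.21), Slc1a2 (-1.81 ± 0.21), a glutamate transporter, and Cyp1a2 (-0.92 ± 0.18) fell, whereas the WNT feedback gene Axin2 (1.47 ± 0.29) rose. Glul, glutamine synthetase, showed -0.18 ± 0.26 and Lgr5, a receptor that strengthens WNT signals, 0.46 ± 0.24, and neither passed.

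Acute phase genes split as well. Of 29 measured, 4 rose and 6 fell, set against shares of 24.9% and 24.0% over all genes. Besides Lcn2, the rises were Mt1 (2.54 ± 0.48), a metallothionein, Il1rn (2.12 ± 0.31), the interleukin 1 antagonist, and Socs3 (1.54 ± 0.41), a brake on cytokine signals, while Saa4 (-1.86 ± 0.29), Crp (-1.01 ± 0.16) and Il6ra (-1.20 ± 0.29), the interleukin 6 receptor, fell. Among 26 measured genes of cell death and DNA repair 9 rose and 1 fell, the rises including Rad54l (at least 3.19-fold higher), of recombination repair, and Mlkl (2.02 ± 0.20), which carries out necroptosis. Of 33 measured fatty acid oxidation genes 5 rose and 9 fell, and of 21 cholesterol genes 2 rose and 6 fell, or 2 and 8 without knockout replicate 4. With all arrays, the shares of falls in these 2 groups were close to the 24.0% over all genes. Their shares of rises were below 24.9%.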
